A study of Rattus norvegicus with 6 samples.

Results

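The genes described here build the route by which secreted proteins enter the endoplasmic reticulum (ER) and travel to the Golgi apparatus. They were taken as every probe set whose platform annotation gives exactly 1 gene symbol beginning with or equal to the names of Sec proteins, Sar1, the lettered Cop coat subunits, Tmed, Trapp, Kdelr, Lman, Golg, Surf4, Preb or Mia3. This gave 104 probe sets for 71 genes, of 14217 named genes on the array. They fell into 8 translocon genes, 12 COPII genes, 8 COPI genes, 17 cargo receptors, 20 Golgi genes and 6 other Sec genes. Of the 71 genes, 69 were bright enough to be tested, and the p24 family gene Tmed6 and the lipid transfer gene Sec14l3 were not.

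Secretory proteins enter the ER through the Sec61 channel, the translocon, and signal peptidase removes their signal sequence. COPII is the protein coat that buds vesicles from ER exit sites: the GTPase Sar1 recruits the inner coat of Sec23 and Sec24, and then the outer cage of Sec13 and Sec31. COPI, or coatomer, forms vesicles that return escaped ER proteins and cargo receptors from the Golgi. Golgins and TRAPP complexes tether the arriving vesicles. Osteoblasts load this route heavily because they export procollagen, whose rigid trimers are longer than a usual COPII vesicle is wide.

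The study measured RNA in UMR106-01, an osteosarcoma line of the rat with osteoblast properties, with 1 Affymetrix array for each of 6 cultures. All were seeded at 100000 cells per cm2 with 10% fetal bovine serum and were re-fed at 64 h with medium containing beta-glycerol phosphate at 6.5 mM as the phosphate donor for mineral. In 3 of them, the AEBSF cultures, that medium also held 400 µM AEBSF, an inhibitor of serine proteases, and the other 3, the mineralizing cultures, received none. RNA was taken at 76 h, 12 h after the change of medium, and the comparison addresses how transcript levels change with the inhibitor. The line is a tumour, so no normal osteoblasts were measured, and without a culture free of beta-glycerol phosphate the effect of mineralizing conditions cannot be read.

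Values are MAS5 signals, which combine the probes of a probe set into 1 brightness per array. Each array was scaled to the same trimmed mean, so a rise or fall is relative to the other transcripts on the array, and fewer expressing cells cannot be told apart from less RNA per cell. Of 9 osteoblast markers measured, 8 were above the signal filter, among them Ibsp and Alpl, while the probe set of osteocalcin (Bglap) had mean signals of only 1.95 and 4.80. The summed signal of the 9 was 29319 to 30926 in mineralizing and 26651 to 27822 in AEBSF arrays. The procollagen genes Col1a2 and Col1a1 and the marker Phex were 2.18-fold, 1.59-fold and 1.66-fold lower (limma adjusted p = 1.3e-05, 0.00116 and 3.4e-05). Ibsp, Alpl, Spp1, Pth1r and Sparc had log2 fold changes of 0.05, -0.05, -0.17, -0.12 and -0.15, each with a limma adjusted p above 0.05. Ibsp, the brightest of the 9, had mean signals of 16520 and 17101. Whether the marker changes bear on the genes below was not tested. Of 19 markers of macrophages, endothelium, fat, muscle and cartilage, 4 were above it, and their summed signals stayed under 220 for each cell type on each array. Probe sets were tested as log2 signal with limma, and a change is called here where the Benjamini-Hochberg adjusted p over 18625 probe sets was under 0.05. A gene is represented by its brightest probe set.

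With AEBSF, 13 of the 69 tested transport genes passed, 11 lower and 2 higher, a share of 18.8% against 16.3% of all 9864 tested genes. The share of called genes in the family was thus close to that of the array. Split by direction, 15.9% were lower and 2.90% higher, against 9.22% and 7.09% of all tested genes. The 11 that fell were the signal peptidase gene Sec11c, the COPII genes Sec16b, Sec24d and Mia3, the coatomer gene Copg2, the p24 genes Tmed3 and Tmed4, the golgin gene Golga5 and the TRAPP genes Trappc6a, Trappc2b and Trappc12. The 2 that rose were the lectin gene Lman2l and the TRAPP gene Trappc5. Their median size was 1.24-fold and the largest, that of Sec16b, was 1.40-fold.

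Across the 69 genes the median log2 fold change was -0.07, beside 0.002 over all tested genes, and 45 of them (65.2%) lay below 0, beside 49.7% of all tested genes. In 31 genes (44.9%) the 3 AEBSF values did not overlap the 3 mineralizing values, against 36.1% of all tested genes. Of these 24 were lower and 7 higher. Those shares were 34.8% lower and 10.1% higher, against 19.1% and 17.0% of all tested genes. Every group had a median below 0, from -0.05 in COPII to -0.09 in the cargo receptors, though that of COPII was 0.006 without AEBSF culture 3, and the plot of fold changes by group shows calls spread over 5 of the 6 groups. Scaling the arrays to their hybridization controls, the transcripts added to each sample before hybridization, moved the median of all genes to -0.14 and that of the transport genes to -0.22, a shift that is the same for every gene by construction and leaves the family 0.08 below the array. Under that scaling 0 transport genes were higher and 22 lower, where 16.2% of all tested genes passed in either direction, and over all genes the split went from 699 higher and 909 lower to 61 and 1535.

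**Figure D1:**
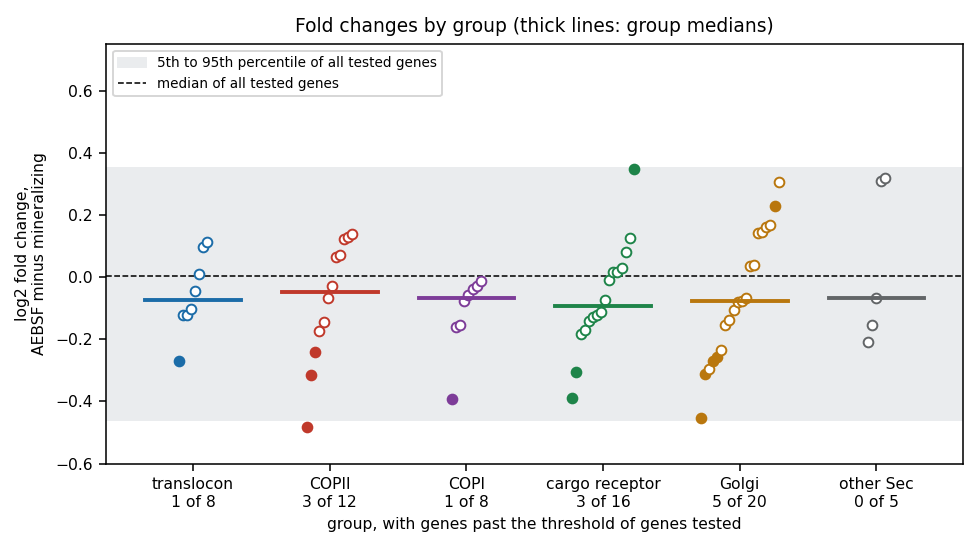
Log2 fold changes (AEBSF minus mineralizing) of the 69 tested genes by group, with the number past the threshold under each group name; filled points passed, thick lines are group medians, and the grey band spans the 5th to 95th percentile of all tested genes. The group medians lie between -0.09 and -0.05, and the point lowest in the plot is Sec16b at -0.48.

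The replicate arrays bear on single calls. Only Sec16b was called in the main fit and in all 17 alternative fits made for single genes. Copg2, Sec11c and Trappc2b passed without each array in turn and missed the threshold only with a constant variance prior (limma adjusted p = 0.0523, 0.0774 and 0.0633). With that prior 2 of the 13 calls remained, Sec16b and Trappc6a, where 5.52% of all tested genes passed. Each of the other 9 calls was lost when 1 or more single arrays were left out, as given beside the gene. Without mineralizing culture 1, 2 or 3 the number of transport genes called was 7, 5 or 9 of 69, where 7.99%, 8.34% and 10.0% of all tested genes passed. Without AEBSF culture 1, 2 or 3 it was 12, 10 or 13, where 10.8%, 12.1% and 14.8% passed. It was 18 after quantile normalization, 12 with median centring, 12 of 71 with no signal filter, 14 of 67 with the filter at the 60th percentile, 13 when probe sets of the same gene were averaged and 10 with replicate number as a block. The shares of all tested genes were 16.4%, 12.3%, 7.82%, 22.0%, 15.8% and 11.7% in that order.

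**Figure D2:**
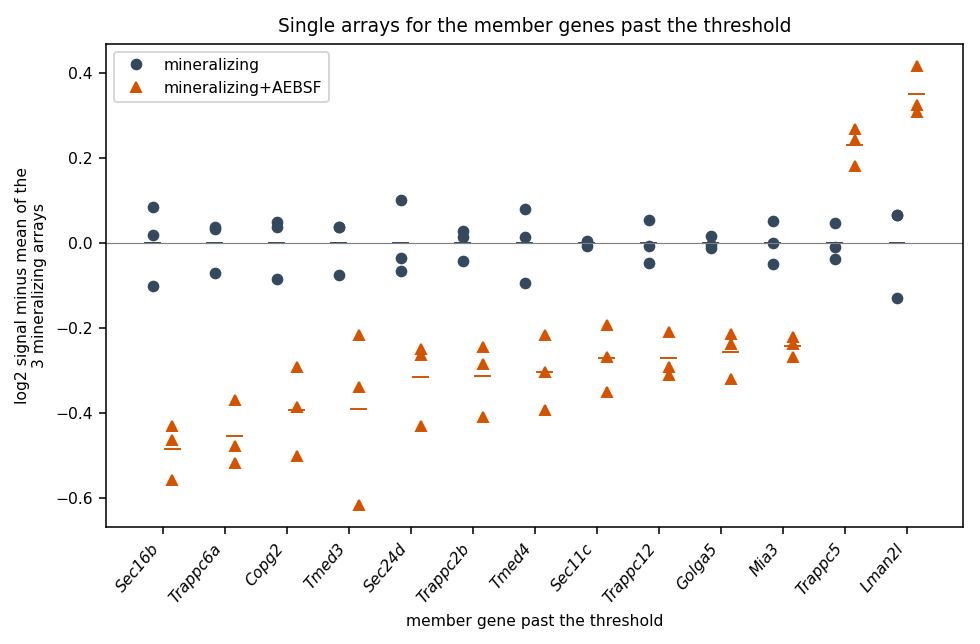
Log2 signal on each array for the 13 genes past the threshold, as the difference from the mean of the 3 mineralizing arrays; circles are mineralizing cultures, triangles are AEBSF cultures and short lines are group means. In each gene the 3 triangles lie outside the range of the 3 circles, below them in 11 genes and above them in Lman2l and Trappc5. The genes were chosen by the test on these same values, so this separation is not separate evidence.

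Promoters were read because this route is a known target of the unfolded protein response, whose factors Atf6 and Xbp1 bind the ER stress element (CCAAT and CCACG, 9 unspecified bases apart) and the element TGACGTG. RefSeq promoters of assembly GRCr8, from 250 bases before to 50 after the annotated gene start, were found for 59 of the 71 genes and searched on both strands. TGACGTG stood in 8 of the 59 (13.6%), against 380 of 18999 protein-coding genes (2.00%) and 10 of 89 (11.2%) among other genes of the route outside the naming rule. The longer element stood in 0 of the 59, in 1 of those 89 and in 0.0947% of all, so the motifs overlapped in none of the 59. The 8 holders were Mia3, Trappc2b, Copa, Copb1, Copb2, Kdelr3, Sec16a and Golgb1. Of them 2 fell, Mia3 and Trappc2b, and 0 rose, with log2 fold changes from -0.31 to 0.01. Lower calls made up 15.9% of the tested transport genes and 9.22% of all tested genes. Whether the element bears on the 2 falls was not tested. The promoter stretches of the 2 that fell and of the 3 coatomer subunits are shown 5′ to 3′ in the direction of the gene, with the element in capitals, as CACGTCA where it lies on the other strand:
Mia3: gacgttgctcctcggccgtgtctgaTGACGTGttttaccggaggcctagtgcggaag
Trappc2b: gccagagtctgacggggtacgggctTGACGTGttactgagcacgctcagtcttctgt
Copa: ctggggtagcTGACGTGgagcctttgg
Copb1: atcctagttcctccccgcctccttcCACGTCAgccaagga
Copb2: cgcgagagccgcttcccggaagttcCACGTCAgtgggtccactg

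The Mia3 stretch is chr13:97519610-97519666 (minus strand of GRCr8) and its element begins 22 bases before the start, while that of Trappc2b, chr10:36443493-36443549 (minus strand), begins 92 bases before it. In Copb1 (chr1:177872831-177872870, minus strand) and Copb2 (chr8:108040653-108040696, plus strand) it begins 5 and 9 bases before the start. In Copa (chr13:87078888-87078914, plus strand) it begins at base 31 of the transcript. A match says only that the letters are present, and Mia3, Trappc2b, Copb1, Copb2 and Copa had log2 fold changes of -0.24, -0.31, -0.15, -0.04 and -0.08.

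At the ER membrane, 1 of 8 translocon genes fell (12.5%) and 0 rose, against 9.22% and 7.09% of all tested genes. At an unadjusted p under 0.05 in limma 0 of the 8 were higher. Sec11c, a catalytic subunit of signal peptidase, had signals of 2197, 2182 and 2195 in mineralizing cultures 1 to 3 and of 1916, 1718 and 1821 in AEBSF cultures 1 to 3. The mineralizing values lay within 20 units of each other and all above the AEBSF values. The fall was 1.21-fold (log2 fold change -0.27 with SE 0.06, limma adjusted p = 0.0121). Its paralog Sec11a, the other catalytic subunit, stood at 3104 ± 44.0 and 3124 ± 96.8 (SD, n = 3 arrays each), with a log2 fold change of 0.01 and a 95% confidence interval from -0.10 to 0.12. The difference between the paralogs was not tested.

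Of the 4 channel genes 0 passed in limma, with 0 at an unadjusted p under 0.05, on the brightest probe set, and they did not share a sign except with hybridization scaling, where all lay below 0. Sec61a1, the pore-forming subunit, had signals of 6219, 5885 and 6783 in the mineralizing cultures and 5878, 5817 and 5632 in the AEBSF cultures (log2 fold change -0.12, 95% confidence interval -0.25 to 0.01). These groups did not overlap, though 5885 and 5878 nearly met, and limma gave adjusted p = 0.201. It passed after quantile normalization and with hybridization scaling (limma adjusted p = 0.0464 and 0.0494). The other tested probe set of Sec61a1 gave 3336, 3470 and 3269 against 3245, 2822 and 2904, also without overlap (log2 fold change -0.17, unadjusted p = 0.0185, limma adjusted p = 0.0945). Sec61b, a small subunit, had a log2 fold change of -0.10 and the other small subunit, Sec61g, one of 0.10 (limma adjusted p = 0.209 and 0.259). Sec61a2, a second pore isoform, had one of 0.11. Sec63 and Sec62, which help the channel open and take in proteins after their synthesis, had log2 fold changes of -0.12 and -0.05 (limma adjusted p = 0.153 and 0.694). Sec63 has 4 tested probe sets, which ranged from -0.12 to 0.19, and 0 of them passed.

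Of 12 COPII genes, 3 fell and 0 rose, with Sec13 the only one higher at an unadjusted p under 0.05 in limma. Sec16b, a scaffold of ER exit sites, had signals of 756, 723 and 665 in mineralizing cultures 1 to 3. In AEBSF cultures 1 to 3 they were 518, 529 and 485. Every AEBSF value lay more than 130 units under the lowest mineralizing value, a 1.40-fold fall (log2 fold change -0.48 with SE 0.08, limma adjusted p = 0.00387). Its larger paralog Sec16a, the major exit-site scaffold, stood at 1266 ± 57.4 and 1242 ± 51.8, with overlapping groups (log2 fold change -0.03, 95% confidence interval -0.17 to 0.11).

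Mia3 encodes TANGO1, the exit-site receptor that packs procollagen into COPII carriers. Its promoter stretch is shown above. Its signals were 3652, 3525 and 3405 in the mineralizing cultures and 2990, 3023 and 2930 in the AEBSF cultures, with tight and separate groups. The fall was 1.18-fold (log2 fold change -0.24 with SE 0.05, limma adjusted p = 0.0118). It was lost without mineralizing culture 1 or 2 (limma adjusted p = 0.0600 and 0.0513). A second, dim probe set of Mia3, with means of 97.3 and 93.0, had a log2 change of -0.08 (limma adjusted p = 0.848), and the mean of both probe sets did not pass (0.268).

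Sec24 proteins are the cargo-binding subunits of the inner coat, and 3 isoforms had a probe set with 1 symbol. Sec24d, which large cargo such as procollagen needs, gave 1812, 1992 and 1772 in mineralizing and 1547, 1377 and 1562 in AEBSF cultures. All AEBSF values were lower, with a log2 change of -0.31 (SE 0.07, limma adjusted p = 0.0144; 0.0698 without mineralizing culture 2). Sec24b and Sec24c had log2 fold changes of 0.13 and 0.07, with 95% confidence intervals from -0.08 to 0.34 and from -0.14 to 0.28. Their other probe sets also lay above 0, at 0.04 and 0.13, and neither passed. Whether Sec24d differs from these isoforms was not tested.

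The rest of the COPII coat did not pass. Sec13, part of the outer cage and also of the nuclear pore, had values of 5141, 5207 and 5591 and then 5684, 6114 and 5735, all higher with AEBSF (log2 fold change 0.14, limma adjusted p = 0.124), but with hybridization scaling the log2 fold change was -0.009. Sec23b, the GTPase-activating subunit of the inner coat, lay lower, at 2083 ± 86.3 and 1885 ± 58.8 (log2 fold change -0.14, limma adjusted p = 0.127), and passed with hybridization scaling (0.0392). Sec31a, the other cage subunit, gave 447, 688 and 300 in AEBSF cultures 1 to 3 against 493 to 533 in the mineralizing cultures, so its interval ran from -0.65 to 0.30. A dim probe set of Sec31a, with means of 74.6 and 88.2, lay higher without overlap (log2 fold change 0.24, limma adjusted p = 0.490). The signs of its probe sets thus differed. Sar1a and Sar1b, the GTPases that start the coat, had log2 fold changes of 0.07 and -0.07, and Preb, the exchange factor that activates them, one of 0.12 (limma adjusted p = 0.595, 0.516 and 0.308). The other probe set of Sar1a had -0.08, lower without overlap (limma adjusted p = 0.352), so no direction can be given for Sar1a. Sec23a and Sec24a were not analysed here.

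**Figure D3:**
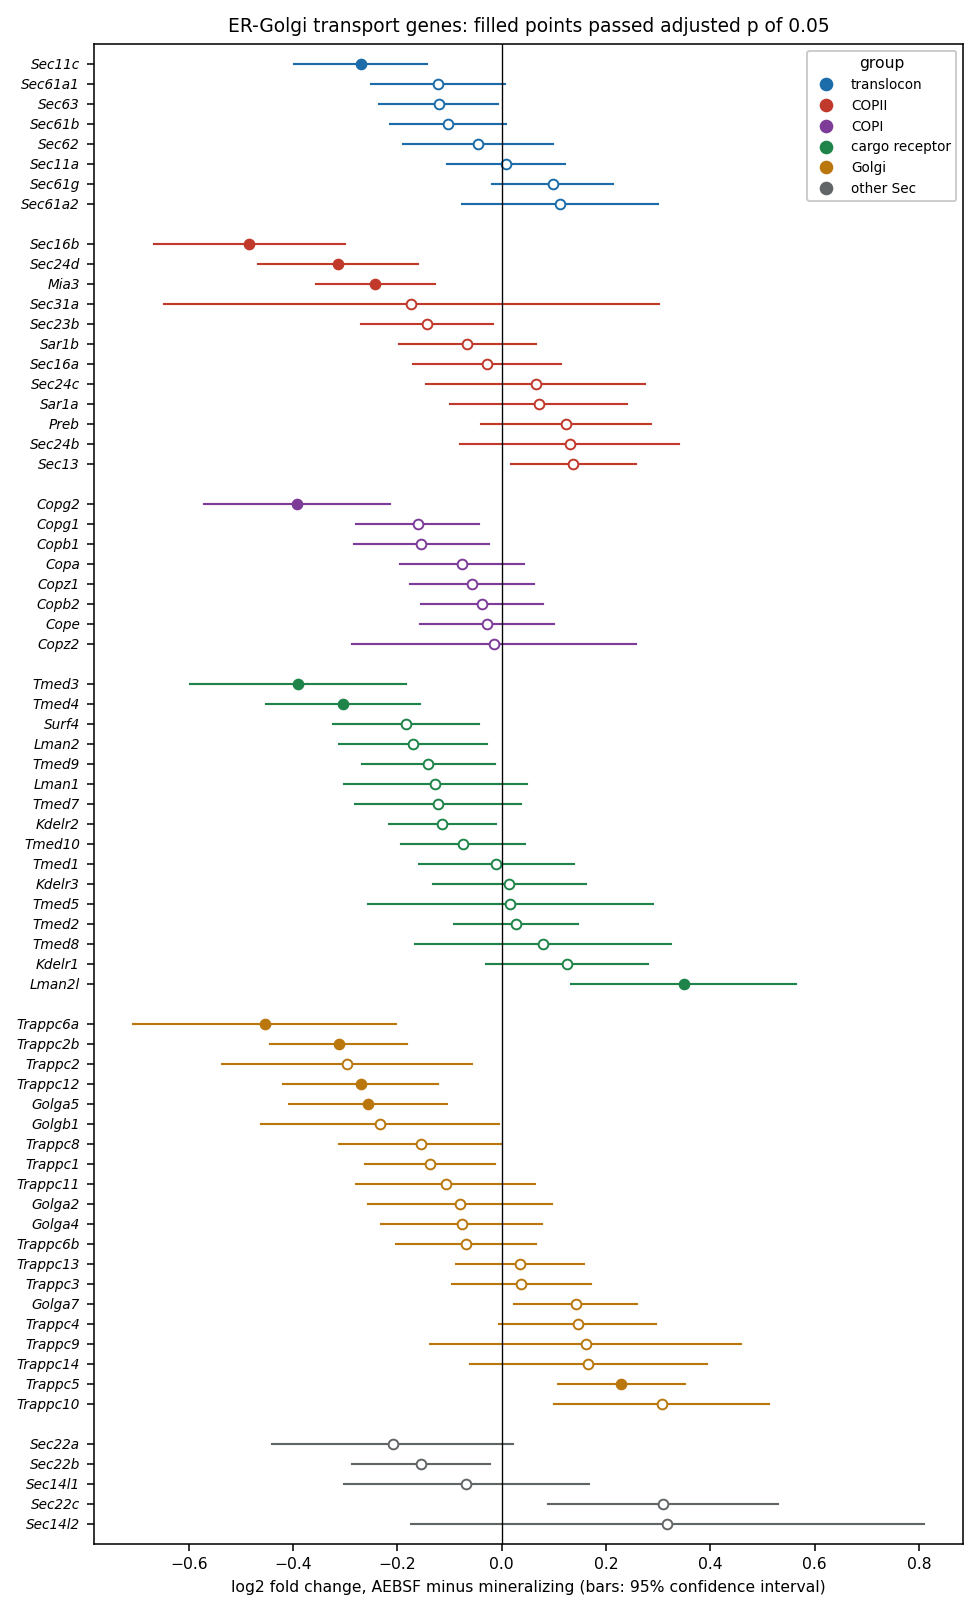
Log2 fold change (AEBSF minus mineralizing) of each of the 69 tested genes with its 95% confidence interval from limma, by group; filled points passed an adjusted p of 0.05. The 8 COPI points lie between -0.39 and -0.01, while the other 5 groups hold points on both sides of 0.

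The p24 (Tmed) proteins are cargo receptors that cycle between ER and Golgi. Of 9 tested Tmed genes, with Tmed8 counted by its name only, 2 fell (22.2%) and 0 rose. Those shares were 9.22% and 7.09% of all tested genes. Tmed4 belongs to the alpha branch of the family. Its signals were 1931, 2180 and 2083 without and 1775, 1570 and 1672 with AEBSF. Its groups were apart in both of its probe sets, and both passed, with log2 fold changes of -0.30 and -0.26 (SE 0.07 each, limma adjusted p = 0.0137 and 0.0237). The call on the brighter one was lost without mineralizing culture 2 (0.0670). Tmed9, also of the alpha branch, had log2 fold changes of -0.14 and -0.22 in its probe sets. In the main fit only the dimmer one passed (limma adjusted p = 0.137 and 0.0308), with values of 2118, 2135 and 2049 against 1714, 1788 and 1909. Tmed9 also passed with hybridization scaling and when its probe sets were averaged.

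Tmed3, of the gamma branch, had signals of 1102, 1191 and 1190 in mineralizing cultures and 999, 757 and 917 in AEBSF cultures. AEBSF culture 2 was the lowest, and all 3 lay under the mineralizing range (1.31-fold; log2 fold change -0.39 with SE 0.09, limma adjusted p = 0.0199). The call was lost without mineralizing culture 2 or 3 (limma adjusted p = 0.0698 and 0.0656). The gamma members Tmed1, Tmed5 and Tmed7 had log2 fold changes of -0.01, 0.02 and -0.12 and did not pass. Tmed7 passed with hybridization scaling and without AEBSF culture 3, and Tmed8, which shares the family name, had one of 0.08. Tmed2 and Tmed10, the only beta and delta members and partners of the others in p24 complexes, were at 9764 ± 348 and 9956 ± 465 and at 4340 ± 208 and 4121 ± 93.5. Their 95% confidence intervals ran from -0.09 to 0.15 and from -0.19 to 0.04, so a change of the size seen in Tmed3 lies outside both. Tmed6 had signals under 4 on all 6 arrays.

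Among the lectin receptors for glycoproteins, Lman2l rose and the others did not pass. Lman2l, a relative of Lman2 (VIP36) in the early pathway, had signals of 383, 335 and 383 in mineralizing cultures and 453, 458 and 488 in AEBSF cultures. The groups were separate, with mineralizing culture 2 lowest (1.27-fold; log2 fold change 0.35 with SE 0.10, limma adjusted p = 0.0375). This call was lost without any 1 of the 6 arrays (limma adjusted p from 0.0635 to 0.143), with median centring (0.0516) and with hybridization scaling (0.355). Lman1 (ERGIC-53), the receptor for clotting factors V and VIII, and Lman2 lay below 0, at -0.13 and -0.17 (limma adjusted p = 0.333 and 0.108). Lman2 passed with hybridization scaling (0.0194).

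The KDEL receptors return ER chaperones that carry the KDEL tail. Kdelr2 gave 9939, 10108 and 10148 in mineralizing cultures and 9257, 9400 and 9246 in AEBSF cultures, a small but complete separation. Its log2 fold change of -0.11 did not pass (limma adjusted p = 0.136), but did after quantile normalization (0.0106) and with hybridization scaling (0.0390). Kdelr1 and Kdelr3 had log2 fold changes of 0.13 and 0.01, with overlapping groups. Surf4, a receptor that speeds the exit of soluble proteins, had a log2 fold change of -0.18 in 1 probe set and of 0.02 in the other (limma adjusted p = 0.0817 and 0.889). The first passed with hybridization scaling (0.0280).

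In COPI all 8 genes under the naming rule lay below 0, where 49.7% of all tested genes did. Of the 8, 1 passed (12.5%), against 16.3% of all tested genes. The number below 0 was 7 after quantile normalization and without mineralizing culture 2 or AEBSF culture 3. After quantile normalization 3 passed, Copg2, Copg1 and Copb1, where 16.4% of all tested genes passed. Copg2, an isoform of the gamma subunit that binds cargo and the GTPase Arf1, had signals of 783, 853 and 859 in mineralizing and 587, 636 and 678 in AEBSF cultures. The highest AEBSF value lay about 100 units under the lowest mineralizing one, a 1.31-fold fall (log2 fold change -0.39 with SE 0.08, limma adjusted p = 0.00982). The gamma isoform Copg1 had values of 4264, 4488 and 4272 against 3993, 3690 and 3972, also without overlap (log2 fold change -0.16, limma adjusted p = 0.0711). Copg1 passed after quantile normalization (0.0251) and with hybridization scaling (0.0165). Its other probe set had -0.12, with overlapping groups (limma adjusted p = 0.249). Copb1, the beta subunit, had 3821, 3916 and 4020 against 3390, 3383 and 3808 (log2 fold change -0.15, limma adjusted p = 0.111). It passed without AEBSF culture 3 (0.0337), after quantile normalization (0.0478) and with hybridization scaling (0.0196).

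The alpha and beta-prime subunits Copa and Copb2, which form the outer layer of coatomer, had log2 fold changes of -0.08 and -0.04 (limma adjusted p = 0.395 and 0.689). Cope, the epsilon subunit, and the zeta isoforms Copz1 and Copz2 had -0.03, -0.06 and -0.01. Arcn1, the delta subunit gene outside the naming rule, had -0.02 and -0.04 in its probe sets (limma adjusted p = 0.828 and 0.636). For Copa the 95% confidence interval ran from -0.19 to 0.04, and for Copb2 from -0.16 to 0.08. No difference within the coatomer was tested.

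On the Golgi side, 4 of 20 genes fell (20.0%) and 1 rose (5.00%), against 9.22% and 7.09% of all tested genes. The TRAPP complexes, which tether vesicles and activate Rab1 or Rab11, hold 15 of these genes. Of the 15, 3 fell (20.0%) and 1 rose (6.67%). Trappc6a, a core subunit, had signals of 320, 319 and 297 and then 241, 218 and 224 with AEBSF, well apart (1.37-fold; log2 fold change -0.45 with SE 0.12, limma adjusted p = 0.0247). Leaving out mineralizing culture 1 or 2 ended that call (limma adjusted p = 0.0900 each), as did leaving out AEBSF culture 2 or 3 (0.0594 and 0.0506). Its isoform Trappc6b had a log2 fold change of -0.07 (95% confidence interval -0.20 to 0.07).

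Trappc2b, a core subunit, had signals of 2544, 2422 and 2519 in the mineralizing cultures and 2105, 1879 and 2050 in the AEBSF cultures. The fall was 1.24-fold, with separate groups (log2 fold change -0.31 with SE 0.06, limma adjusted p = 0.00659). Trappc2, a close relative of it whose transcript the same probes could bind, had a log2 change of -0.30 (SE 0.11, limma adjusted p = 0.0975) and passed with hybridization scaling and without AEBSF culture 3, so the split between them is uncertain. Trappc5, also in the core, rose. Its values were 2013, 1973 and 2094 without and 2296, 2396 and 2437 with AEBSF, and 2 of its 3 probe sets passed (log2 fold change 0.23 and 0.33, limma adjusted p = 0.0197 and 0.0165; 0.21 and 0.214 for the other). The call on the brightest was lost without mineralizing culture 1 or 2 (0.0736 and 0.0887), and with hybridization scaling its log2 fold change was 0.08 (0.619). Core subunits thus gave 2 falls and 1 rise among 8 genes, and Trappc3, another core subunit, was at 1842 ± 76.4 and 1891 ± 86.2.

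Of 4 subunits specific to the TRAPPIII form of the complex, Trappc12 fell. It had signals of 1001, 1029 and 1073 and then 834, 894 and 845 (log2 fold change -0.27 with SE 0.07, limma adjusted p = 0.0233). Without mineralizing culture 1, 2 or 3 or AEBSF culture 1 it did not pass (limma adjusted p = 0.0600, 0.0757, 0.0877 and 0.0639). Of the subunits tied to TRAPPII, Trappc9, Trappc10 and Trappc14, all 3 lay above 0 and 0 passed in limma, with 1 at an unadjusted p under 0.05. That was Trappc10, at 672, 710 and 586 against 738, 881 and 813 (log2 fold change 0.31, limma adjusted p = 0.0517), and its other probe set had 0.40 (0.163). Trappc10 passed after quantile normalization, with median centring, under the 60th percentile filter and without AEBSF culture 1. The other core subunits Trappc1 and Trappc4 had log2 fold changes of -0.14 and 0.15, and the TRAPPIII subunits Trappc8, Trappc11 and Trappc13 had -0.16, -0.11 and 0.04, with limma adjusted p from 0.138 to 0.725. The subsets of TRAPP were drawn up after the values were seen.

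Golgins are coiled-coil tethers of the Golgi surface, and of the 5 Golg genes 1 fell (20.0%, against 9.22% of all tested genes). Golga5 (golgin-84) gave 876, 893 and 880 in mineralizing and 761, 750 and 707 in AEBSF cultures, a clear gap between tight groups (log2 fold change -0.26 with SE 0.07, limma adjusted p = 0.0313). The call was lost without any 1 of mineralizing cultures 1 to 3 or AEBSF cultures 2 and 3 (limma adjusted p from 0.0512 to 0.107), and also with median centring (0.0568). Golgb1 (giantin) also had separate groups, 344, 345 and 322 against 292, 286 and 282, but did not pass (log2 fold change -0.23, limma adjusted p = 0.166). Golga2 (GM130), the cis-Golgi golgin, and Golga4, a golgin of the trans-Golgi, each had a log2 fold change of -0.08. Golga7, named with the golgins but a partner of the enzyme that palmitoylates Ras, had higher values on all AEBSF arrays, 6635, 6629 and 6791 against 5805, 5950 and 6439 (log2 fold change 0.14, limma adjusted p = 0.106), but -0.005 with hybridization scaling.

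Of the 3 Sec22 genes, Sec22b encodes a membrane-fusion (SNARE) protein of the same route. On the brightest probe set 0 of the 3 passed in limma, with 2 at an unadjusted p under 0.05. Sec22a lay lower without overlap, at 356, 363 and 338 against 288, 301 and 326 (log2 fold change -0.21, limma adjusted p = 0.220). For Sec22c the probe sets disagreed. Its brightest had values of 476, 570 and 450 against 580, 641 and 625, higher with AEBSF (log2 fold change 0.31, limma adjusted p = 0.0646; 0.0367 without mineralizing culture 2). Another had 370, 386 and 350 against 234, 276 and 300 and fell (log2 fold change -0.46 with SE 0.12, limma adjusted p = 0.0292), and the last had -0.28 (0.163). No direction can be given for this gene. Sec22b, the main ER-Golgi member, had log2 fold changes of -0.16 and -0.06 and passed with hybridization scaling (limma adjusted p = 0.0198). The Sec14-like genes encode lipid-binding proteins and share only the name; Sec14l1 and Sec14l2 had signals under 400 and 140 on each array and did not pass.

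**Figure D4:**
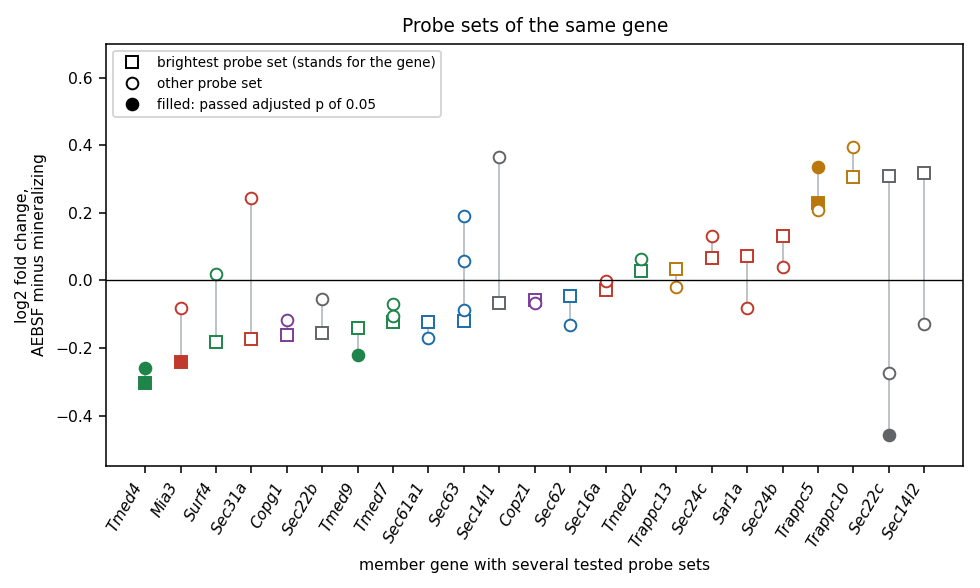
Log2 fold changes (AEBSF minus mineralizing) of all tested probe sets for the 23 genes with several; squares are the brightest probe set, circles the others, and filled symbols passed an adjusted p of 0.05. In 15 genes all symbols lie on the same side of 0, and the widest gap, 0.77, is that of Sec22c.

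Counted by probe set, 14 of 97 tested were lower and 3 higher, 17.5% against 13.4% of all tested probe sets, of which 7.41% were lower and 5.99% higher. Of 23 genes with several tested probe sets, 15 had fold changes of a single sign. In Tmed4 and Trappc5 more than 1 probe set passed, in Mia3 only the brightest, and in Tmed9 and Sec22c only another.

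Of 97 other genes of the same route outside the naming rule, all tested, 9 fell and 3 rose, 12.4% against 16.3% of all tested genes. Split by direction, 9.28% were lower and 3.09% higher, against 9.22% and 7.09% of all tested genes. The share lower was thus that of the array. Nucb2, a calcium-binding protein of the Golgi and secretory pathway, had the largest change, from 260, 266 and 275 to 134, 137 and 133, a 1.98-fold fall with a wide gap (log2 fold change -0.99 with SE 0.13, limma adjusted p = 0.000941). The tethers and golgin-like genes Cog3, Uso1 (p115) and Tmf1 fell by 0.38, 0.29 and 0.24 on the log2 scale, and a second probe set of Tmf1 had 0.16 (limma adjusted p = 0.381). The fusion genes Napg and Use1 fell by 0.32 and 0.25, and Napb, which encodes beta-SNAP, rose from 206, 279 and 245 to 367, 387 and 371 (log2 fold change 0.63 with SE 0.13, limma adjusted p = 0.00845).

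At the translocon the signal peptidase subunit Spcs3 fell by 0.28 on the log2 scale (limma adjusted p = 0.00729). Emc3 and Get3, of pathways that insert membrane proteins without Sec61, rose by 0.23 and 0.31 (limma adjusted p = 0.0302 and 0.0496). Spcs3 gave 6369, 6668 and 6616 against 5468, 5087 and 5650. The signal peptidase subunits Spcs1 and Spcs2 did not pass, with log2 fold changes of 0.10 and -0.02 (limma adjusted p = 0.269 and 0.792). Among COPII-linked genes, Yipf5, an ER-to-Golgi membrane protein, and Xbp1, a factor of the unfolded protein response, fell by 0.22 and 0.20 (limma adjusted p = 0.0317 and 0.0273). Xbp1, Creb3l1 and Creb3l2, counted among the 97, encode transcription factors and not parts of the transport route. Creb3l1 and Creb3l2 did not pass. Of 9 Arf and coatomer-linked genes, 0 passed in limma, with 0 at an unadjusted p under 0.05. These lay on both sides of 0, with 4 below and 5 above and a median log2 fold change of 0.02.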

How the data were processed

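The deposited table holds MAS5 signal intensity values on a linear scale, 1 per probe set and array, made by the authors with MAS5 and GCOS per the submitters' processing notes; the sources used here state neither versions nor the scaling target. The mean after trimming 2% at each end was 500.1 or 500.2 on every array. Arrays correlated at 0.979 to 0.990 (log2), and their number limits the precision. Nothing says whether cultures were independent experiments, so p-values measure the spread between these arrays. Of 31042 probe sets, 20826 had exactly 1 symbol; 436 with several were not used, 2 of which name a matching gene. Log2 signals were tested in R 4.3.3 with limma 3.58.1 (lmFit, eBayes with a mean-dependent prior) on 18625 probe sets whose mean over all 6 arrays exceeded the 40th percentile, a signal of 67.2, which does not look at the groups. SE and 95% intervals are limma's, unadjusted for the number of genes. The script was tested on simulated data. The members and lists were chosen with earlier results of these data known. Named are all called members, the 2 brightest of each group and 31 fixed names, of which 29 were tested; among other route genes, up to 3 per direction and group. Other members named, such as Tmed9 and Trappc10, were chosen after their values were seen. Alternatives changed the scaling, constant, filter, prior, probe-set rule, block and arrays used. RefSeq GRCr8 gave promoters for 59 member genes; Golga4, Golga7, Kdelr2, Sar1a, Sec24c, Sec24d, Sec61a1, Sec61a2, Surf4, Trappc10, Trappc4 and Trappc9 had no entry.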

Additional observations from a re-analysis of the deposited data

How the results depend on the processing

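For single named members, 680 of 765 values under alternatives kept their direction and side of the threshold. Of the rest, 47 calls were lost, 14 were gained, and 24 values changed sign, of which 0 passed the threshold in either fit. With hybridization-control scaling the log2 fold change became -0.0046 in Golga7, -0.021 in Kdelr1, -0.13 in Kdelr3, -0.023 in Preb, -0.076 in Sar1a, -0.0088 in Sec13, -0.016 in Sec24b, -0.081 in Sec24c, -0.049 in Sec61g, -0.12 in Tmed2 and -0.11 in Trappc3. The sign also changed in Tmed2 after quantile normalization (-0.042). With the average over probe sets it changed in Sar1a (-0.0056), Sec22c (-0.14), Sec31a (0.035) and Sec63 (0.0092). Without 1 array at a time the range crossed 0 in Kdelr3 (-0.035 to 0.081), Sar1a (-0.017 to 0.16), Sec16a (-0.059 to 0.0059), Sec24c (-0.066 to 0.16), Sec31a (-0.48 to 0.12) and Tmed2 (-0.0066 to 0.061). In the counts of members higher and lower with AEBSF, 2 and 11 as reported, hybridization-control scaling gave 0 and 22 and a constant variance prior 0 and 2. No signal filter gave 1 higher. The other route genes, 3 higher and 9 lower as reported, became 1 and 16 with hybridization-control scaling and 1 and 2 with the constant prior, and the number higher became 1 with no filter and 5 with the filter at the 60th percentile. The members' median log2 fold change of -0.074 became -0.065 after quantile normalization and -0.22 with hybridization-control scaling, with the median of all genes at -0.14. Without 1 array at a time, 0 to 2 members were higher and 4 to 12 lower, the other route genes gave 1 to 4 higher and 3 to 9 lower, and the median ran from -0.086 to -0.049. With replicate number as a block, members gave 1 higher and 9 lower, with Golga5, Lman2l and Trappc12 lost (limma adjusted p = 0.0662, 0.0613 and 0.05002), and the other route genes 1 higher and 7 lower. The numbers are not known to pair cultures: deviations of same-numbered arrays correlated at 0.01, -0.12 and -0.04. Where not stated, the cause was not tested. Sec14l2, with mean signals of 105 and 128 near the filter, had an SE of 0.23, and the brighter Sec31a one of 0.22.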
